A study of Homo sapiens with 6 samples.

Results

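The genes described here are 10 histone lysine demethylases of the Jumonji C (JmjC) family, namely KDM2A, KDM2B, KDM3A, KDM3B, KDM4A, KDM4B, KDM4C, KDM5B, KDM6A and KDM6B. The rule takes them by gene symbol and uses no measured value, but the set was proposed with earlier results of these data known. All 10 were found among the 17631 genes in the files. Their mRNA was measured by RNA-seq in MDA-MB-231 cells, a human triple-negative breast cancer line with mesenchymal features, after 24 h with vehicle (3 libraries) or with 30 µM PDBAG1 (3 libraries). PDBAG1 is a synthetic peptide in which a stretch of the enzyme GPD1, first found as a peptide in breast adipose tissue, is joined to a cell-penetrating sequence. No genotype or allele differed between the groups, a single cell line was used, and nothing in the sources used here says whether the 3 libraries of a group came from separate cultures, so the p-values measure the spread between these libraries, which may be technical.

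JmjC demethylases take methyl groups off histone lysines in a reaction that needs molecular oxygen, iron and 2-oxoglutarate. They therefore belong to the same enzyme class as the prolyl hydroxylases that mark hypoxia-inducible factor (HIF) for breakdown. KDM3A, KDM4B and KDM4C are textbook HIF targets, whose transcription rises when HIF is stable, and KDM5B and KDM6B have also often been described as hypoxia-induced. Because the study examined a hypoxia-like response to PDBAG1 at normal oxygen, the question put to the data was whether the HIF-target demethylases moved apart from their paralogues.

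The values are TPM, a measure of transcript abundance that is scaled for transcript length and sums to the same total in each library. How deeply the libraries were sequenced cannot be read from TPM and is unknown, and no counting error could be given. The libraries held 12392 to 12611 genes at 1 TPM or above. The standard deviation of log2 differences over the genes tested was 0.142 to 0.175 within a treatment and 0.278 to 0.296 across treatments. The 4 genes taken to mark mesenchymal-like cells were all present, and each changed without overlap between the groups, VIM and CD44 upwards (log2 fold change 0.46 and 0.59) and AXL and CAV1 downwards (-0.26 and -0.30), all 4 called by limma. Their mean TPM with vehicle was 4270 for VIM, 321 for CD44, 384 for AXL and 575 for CAV1. The hormone receptor genes ESR1 and PGR did not exceed 3.38 and 0.06 TPM. Of the other genes expected to be low in this line, CDH1 did not exceed 0.84 TPM. EPCAM averaged 5.14 TPM with vehicle and 5.27 TPM with PDBAG1. ERBB2 was well above these, at a mean of 24.7 TPM with vehicle and 24.5 TPM with PDBAG1. PTPRC, a leukocyte gene, stayed at 1.41 TPM or below and ALB, a liver gene, at 0.13 TPM or below, whereas PECAM1, an endothelial gene, averaged 3.94 ± 0.152 TPM in the vehicle libraries and 8.64 ± 0.680 TPM in the treated ones (SD, n = 3 each). Whether that had a part in the results below was not tested.

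The HIF-binding core is a short motif, written here as ACGTG or GCGTG and searched on both strands, and the 250 bases before the transcription start are shown for the 3 HIF targets, for the paralogues KDM3B and KDM4A, and for KDM6B, whose log2 fold change was close to that of KDM3A. The sequences are those of RefSeq on GRCh38.p14, written 5′ to 3′ on the strand of the gene, with the motif in capitals. They belong to the outermost start that RefSeq lists for each gene.
KDM3A, chr2:86441121-86441370, plus strand: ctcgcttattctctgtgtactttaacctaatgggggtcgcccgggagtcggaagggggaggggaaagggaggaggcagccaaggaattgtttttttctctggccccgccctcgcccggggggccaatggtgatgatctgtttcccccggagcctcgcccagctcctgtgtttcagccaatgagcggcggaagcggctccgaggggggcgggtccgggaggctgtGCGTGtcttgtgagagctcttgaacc
KDM3B, chr5:138352435-138352684, plus strand: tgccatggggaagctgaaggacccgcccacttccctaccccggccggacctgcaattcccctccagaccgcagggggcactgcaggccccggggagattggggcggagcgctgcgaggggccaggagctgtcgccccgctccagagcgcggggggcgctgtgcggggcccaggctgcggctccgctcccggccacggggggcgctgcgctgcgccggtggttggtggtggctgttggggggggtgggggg
KDM4B, chr19:4968863-4969112, plus strand: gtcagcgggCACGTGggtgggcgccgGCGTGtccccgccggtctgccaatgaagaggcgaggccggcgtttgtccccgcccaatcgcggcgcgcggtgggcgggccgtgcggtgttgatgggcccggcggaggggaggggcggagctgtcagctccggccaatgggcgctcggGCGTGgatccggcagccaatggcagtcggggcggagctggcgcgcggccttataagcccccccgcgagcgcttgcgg
KDM4C, chr9:6757723-6757972, plus strand: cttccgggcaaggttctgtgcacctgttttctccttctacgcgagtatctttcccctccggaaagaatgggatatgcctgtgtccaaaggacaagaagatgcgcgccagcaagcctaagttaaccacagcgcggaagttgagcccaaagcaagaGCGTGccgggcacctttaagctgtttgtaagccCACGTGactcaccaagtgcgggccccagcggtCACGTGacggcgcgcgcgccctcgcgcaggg
KDM4A, chr1:43649899-43650148, plus strand: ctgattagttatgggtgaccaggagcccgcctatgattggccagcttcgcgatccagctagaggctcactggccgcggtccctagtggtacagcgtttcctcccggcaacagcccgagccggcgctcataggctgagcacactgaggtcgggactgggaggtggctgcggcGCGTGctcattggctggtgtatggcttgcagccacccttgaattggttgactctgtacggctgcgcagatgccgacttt
KDM6B, chr17:7833967-7834216, plus strand: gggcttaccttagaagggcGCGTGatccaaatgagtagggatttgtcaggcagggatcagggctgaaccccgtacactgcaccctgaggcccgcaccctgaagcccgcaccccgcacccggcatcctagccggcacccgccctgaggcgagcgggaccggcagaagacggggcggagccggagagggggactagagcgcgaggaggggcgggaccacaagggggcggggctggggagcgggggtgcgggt
A CACGTG reads as ACGTG on both strands, so that it counted as 2 matches at 1 place. KDM3A held 1 match, a GCGTG that starts 26 bases before the transcription start. KDM4B held 4 matches at 3 places and KDM4C held 5 matches at 3 places, in each gene with at least 1 CACGTG. In the paralogue KDM3B the letters were not in this window, and KDM4A held 1 match. KDM6B also held 1 match. Of all 35116 RefSeq windows of the same length, 43.2% held at least 1 match, and of the 14832 windows that belong to genes tested here, 54.8% did. Counted in the same way over all listed starts, 12 of the 16 windows of the demethylase genes did. The outermost windows of 8 of the 10 demethylase genes held one, and the exceptions were KDM3B and KDM2B. KDM2B held at least 1 match before each of its other listed starts. KDM6A held 5 matches at 4 places, as many matches as KDM4C, although its mRNA did not pass the test. A match is a string of letters and was not shown to be bound.

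**Figure D1:**
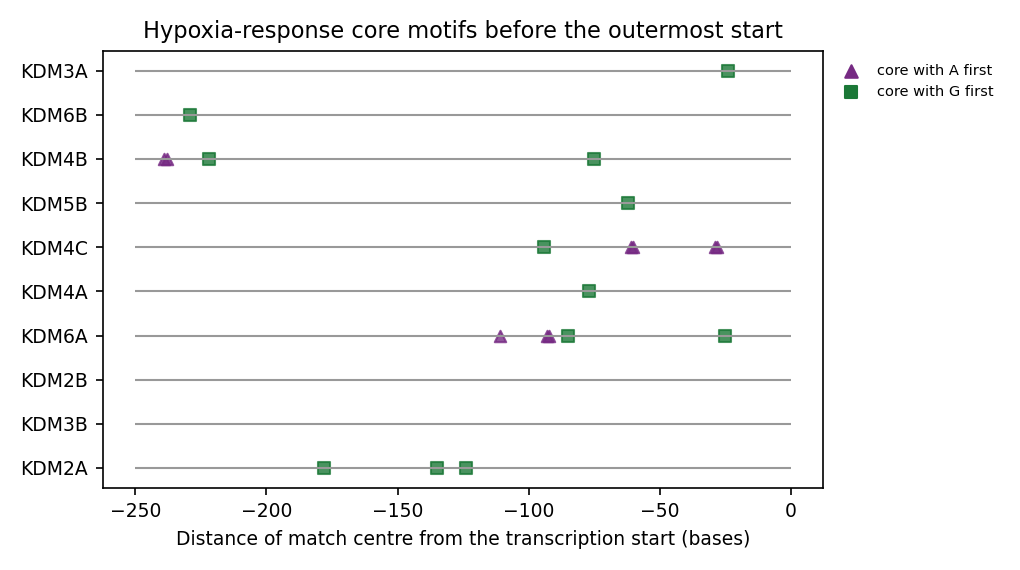
Centres of ACGTG (triangles) and GCGTG (squares) matches on either strand, by distance in bases from the outermost RefSeq transcription start, in the 250 bases before it, for the 10 demethylase genes ordered by their log2 fold change. KDM6A and KDM4C held 5 matches each, and KDM2B and KDM3B held none before this outermost start.

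All 10 genes were expressed well enough to be tested, and 6 rose with PDBAG1: KDM3A, KDM6B, KDM4B, KDM5B, KDM4C and KDM4A. KDM3A, KDM6B and KDM4B rose by at least 1.5-fold. The 4 other genes, KDM6A, KDM2B, KDM3B and KDM2A, did not pass the test, and none of the 10 fell. The test was limma on log2(TPM + 1) across the 12582 genes that reached 1 TPM in 3 libraries or more, with a call at a Benjamini-Hochberg adjusted p under 0.05. Over all genes tested, 37.6% were called, 21.7% higher and 15.9% lower, and 3.34% were called with a change of at least 1.5-fold, with 2.86% of all genes in the higher direction. These last calls were 360 higher and 60 lower, and 287 higher and 94 lower under quantile normalization. The median log2 fold change of the 10 genes was 0.40, that of all genes tested was 0.03, and the upper 5% of all genes began at 0.48. For genes of low TPM the added pseudocount makes the fold change smaller than the ratio of TPM.

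**Figure D2:**
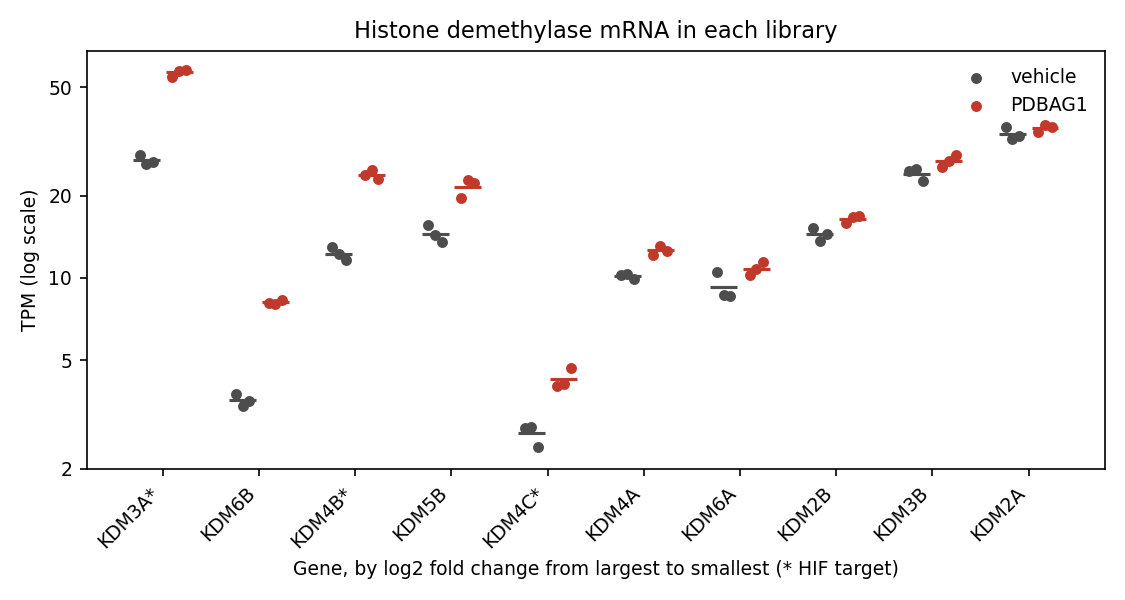
TPM of the 10 demethylase genes (log axis) in each of the 3 vehicle and 3 PDBAG1 libraries, with the mean of each group as a bar and HIF targets marked by an asterisk. In KDM3A the PDBAG1 libraries lie between 54.3 and 57.9 TPM and the vehicle libraries between 26.2 and 28.3 TPM, while in KDM2A, at the right, the groups overlap.

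KDM3A, the textbook HIF-target demethylase that removes mono- and dimethyl marks from lysine 9 of histone H3 (H3K9), was at 28.3, 26.2 and 26.6 TPM in the vehicle libraries and at 54.3, 57.4 and 57.9 TPM with PDBAG1. The groups were far apart and the libraries within each were close together. The mean changed from 27.03 ± 1.11 to 56.5 ± 1.96 TPM (SD, n = 3 each), a 2.09-fold rise, with a log2 fold change of 1.04 (standard error, SE, 0.05, limma adjusted p = 9.51e-09). It ranked 67 from the largest rise among the 12582 genes. The gene lies on chromosome 2 (86440647 to 86492716, GRCh38, GENCODE v44).

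KDM3B, its closest paralogue, also acts on H3K9 and was at 24.6, 24.96 and 22.7 TPM with vehicle. With PDBAG1 it was at 25.5, 26.8 and 28.2 TPM, so that the lowest treated library lay just above the highest vehicle library. The log2 fold change was 0.15 (SE 0.06, limma adjusted p = 0.0776) and did not pass the test. It passed only when PDBAG1 replicate 1 was left out (log2 fold change 0.19, limma adjusted p = 0.0451), and over all 14 alternatives the adjusted p ranged from 0.0451 to 0.569.

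KDM4B, a HIF target that removes di- and trimethyl marks from H3K9 and also acts on lysine 36 (H3K36), was at 13, 12.2 and 11.7 TPM with vehicle and at 23.8, 24.8 and 23.0 TPM with PDBAG1. Its groups did not overlap, and the mean rose 1.94-fold, from 12.3 ± 0.674 to 23.9 ± 0.862 TPM (SD, n = 3 each). Its log2 fold change was 0.90 (SE 0.07, limma adjusted p = 3.09e-07). KDM4B lies on chromosome 19 (4969113 to 5153598, GRCh38, GENCODE v44).

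KDM4C, the third HIF target and an enzyme of the same specificity, was the least abundant of the 10 genes in both groups. It was at 2.83, 2.85 and 2.41 TPM with vehicle and at 4.02, 4.08 and 4.67 TPM with PDBAG1. The groups did not overlap, and the log2 fold change was 0.51 (SE 0.10, limma adjusted p = 0.00148). The ratio of mean TPM was 1.58, above the 1.5-fold limit, which the fold change on log2(TPM + 1) did not reach. KDM4C shares exon bases with 1 lncRNA on the same strand. With a pseudocount of 0.1 the log2 fold change was 0.64 and past that limit.

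KDM4A, the paralogue that is not among the HIF targets, was at 10.3, 10.3 and 9.88 TPM with vehicle and at 12.2, 13.1 and 12.5 TPM with PDBAG1. All treated libraries lay above all vehicle libraries, and the ratio of means, 1.24, was below those of KDM4B and KDM4C. The log2 fold change was 0.29 (SE 0.07, limma adjusted p = 0.0064). KDM4A shares exon bases with KDM4A-AS1, an antisense lncRNA, and with 1 unnamed gene model on the same strand, and since strand was not stated for the counting, reads of these genes may not be told apart.

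KDM6B, also called JMJD3, removes methyl marks from lysine 27 of histone H3 (H3K27) and is known as a gene induced by inflammatory signals. It was at 3.75, 3.40 and 3.56 TPM with vehicle and at 8.08, 8.0 and 8.34 TPM with PDBAG1, and its groups did not overlap. The ratio of means, 2.28, was the largest among the 10 genes, and the log2 fold change was 1.00 (SE 0.08, limma adjusted p = 1.04e-06). The interval of this log2 fold change, 0.82 to 1.18 at 95%, overlapped that of KDM3A, 0.92 to 1.16.

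KDM6A, also called UTX, is the other H3K27 demethylase and works inside the KMT2C and KMT2D complexes at enhancers. It was at 10.5, 8.63 and 8.58 TPM with vehicle and at 10.3, 10.8 and 11.4 TPM with PDBAG1. Vehicle replicate 1 stood above the other vehicle libraries and overlapped the treated range. The log2 fold change of 0.21 (SE 0.09, limma adjusted p = 0.0726) did not pass the test. Without vehicle replicate 1 it was 0.30 and passed (limma adjusted p = 0.0138), while over the 14 alternatives the adjusted p ran from 0.0138 to 0.244.

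KDM5B, which removes methyl marks from lysine 4 of histone H3 (H3K4), was at 15.7, 14.3 and 13.6 TPM with vehicle and at 19.6, 22.8 and 22.3 TPM with PDBAG1. The groups did not overlap, although PDBAG1 replicate 1 was lower than the other treated libraries. The log2 fold change was 0.54 (SE 0.08, limma adjusted p = 0.000114), just short of 1.5-fold. Without vehicle replicate 1 or without PDBAG1 replicate 1 it was 0.59 and 0.60, both past the fold limit.

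KDM2A and KDM2B act mainly on H3K36 and bind unmethylated CpG islands through a CXXC zinc finger. KDM2A was at 35.7, 32.2 and 33.1 TPM with vehicle and at 34.2, 36.2 and 35.6 TPM with PDBAG1, and its groups overlapped. Its log2 fold change of 0.07 (SE 0.06, limma adjusted p = 0.361) did not pass the test, and its 95% interval ran from -0.05 to 0.19. The direction turned to -0.073 when the dependence on length and GC content of the transcript was removed, a setting chosen after the data were seen. KDM2B was at 15.2, 13.6 and 14.5 TPM with vehicle and at 15.9, 16.7 and 16.9 TPM with PDBAG1, without overlap. The log2 fold change of 0.18 (SE 0.07, limma adjusted p = 0.0546) missed the threshold. It passed under 3 of the 14 alternatives, namely without vehicle replicate 1, under median-of-ratios scaling and in limma without the trend, and over all 14 the adjusted p ranged from 0.0365 to 0.428. KDM2B shares exon bases with RNF34 and KDM2B-DT on the opposite strand, and KDM2A with 1 lncRNA there.

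The 3 vehicle and 3 PDBAG1 values did not overlap in 8 of the 10 genes, each higher with PDBAG1. Over all genes tested, 47.4% had groups without overlap, and 27.2% had them without overlap and higher with PDBAG1. In KDM6A and KDM2A they overlapped.

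**Figure D3:**
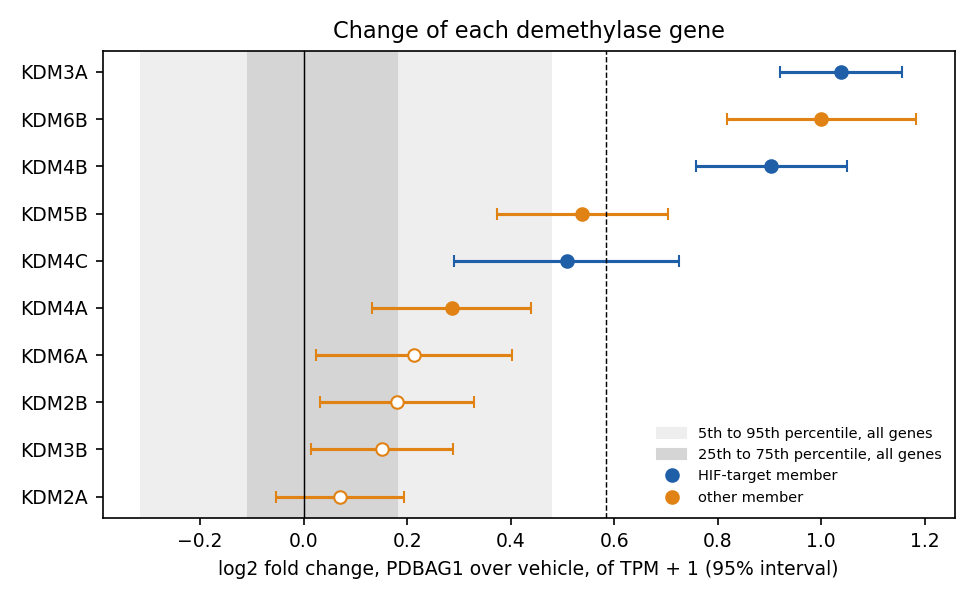
Log2 fold change of TPM + 1, PDBAG1 over vehicle, for each demethylase gene with its 95% limma interval, in blue for HIF targets and orange for the others, filled where the adjusted p was under 0.05. Grey bands hold the middle of all genes tested (25th to 75th percentile, -0.11 to 0.18, and 5th to 95th, -0.31 to 0.48), and the dashed line marks 1.5-fold. KDM3A, KDM6B and KDM4B lie clear of the bands.

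Set against each other, the 3 HIF targets had a median log2 fold change of 0.90 and all 3 were called, and the 7 other genes had a median of 0.21 and 3 of them were called, namely KDM6B, KDM5B and KDM4A. With KDM5B and KDM6B counted among the hypoxia-induced genes, the medians were 0.90 for 5 genes, all called, and 0.18 for 5 genes, of which only KDM4A was called. For comparison, limma called 37.6% of all genes tested, 21.7% higher and 15.9% lower. The HIF targets were not the only genes to rise, since KDM6B had a log2 fold change of 1.00 beside 1.04 for KDM3A. The difference between the medians of HIF targets and others was 0.69 and fell to 0.56 when the length and GC trends were removed.

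Paralogues within a family were compared directly by their log2 ratio in each library, an exact two-sided permutation test of 3 against 3 libraries whose smallest p is 0.1. The log2 ratio of KDM3A to KDM3B (each TPM + 1) averaged 0.16 ± 0.08 in the vehicle libraries and 1.05 ± 0.03 in the treated ones (SD, n = 3 each). KDM3A was thus 1.05 to 1.17 times as abundant as KDM3B in the vehicle libraries and 2.05 to 2.14 times as abundant in the treated libraries. The ratio of KDM6B to KDM6A rose by 0.79 on the log2 scale, from 0.358 to 0.415 in TPM with vehicle to 0.729 to 0.788 with PDBAG1, so that KDM6A stayed the more abundant of the pair. The difference in log2 ratio was 0.62 for KDM4B to KDM4A, 0.33 for KDM5B to KDM5A, 0.22 for KDM4C to KDM4A and 0.11 for KDM2B to KDM2A. In all 6 ratios the treated libraries lay above the vehicle libraries, with an exact permutation p of 0.1 each and 0.1 after adjustment over the 6 ratios, the smallest the design allows. No ratio could therefore pass a threshold of 0.05.

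The make-up of the families was also expressed in shares of summed TPM. KDM3A made up 30.6%, 31.6% and 31.7% of the KDM3 family (KDM3A, KDM3B and JMJD1C) with vehicle and 44.3%, 43.9% and 41.8% with PDBAG1. JMJD1C, a larger relative of the pair, was the most abundant of the 3 in every vehicle library, and KDM3A was in every treated library. In the KDM4 family KDM4B went from 47.7% ± 0.906 to 57.9% ± 1.201, KDM4A from 39.4% ± 0.933 to 30.6% ± 0.460, and KDM4C was at 10.5% ± 0.578 and 10.3% ± 0.982 (SD, n = 3 each). In the KDM6 pair KDM6B went from 28.0% ± 1.51 to 42.9% ± 1.01 (SD, n = 3 each). KDM5B held 24.4% ± 0.630 and 26.1% ± 1.01 of the KDM5 genes counted here (KDM5A, KDM5B and KDM5C; SD, n = 3 each).

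**Figure D4:**
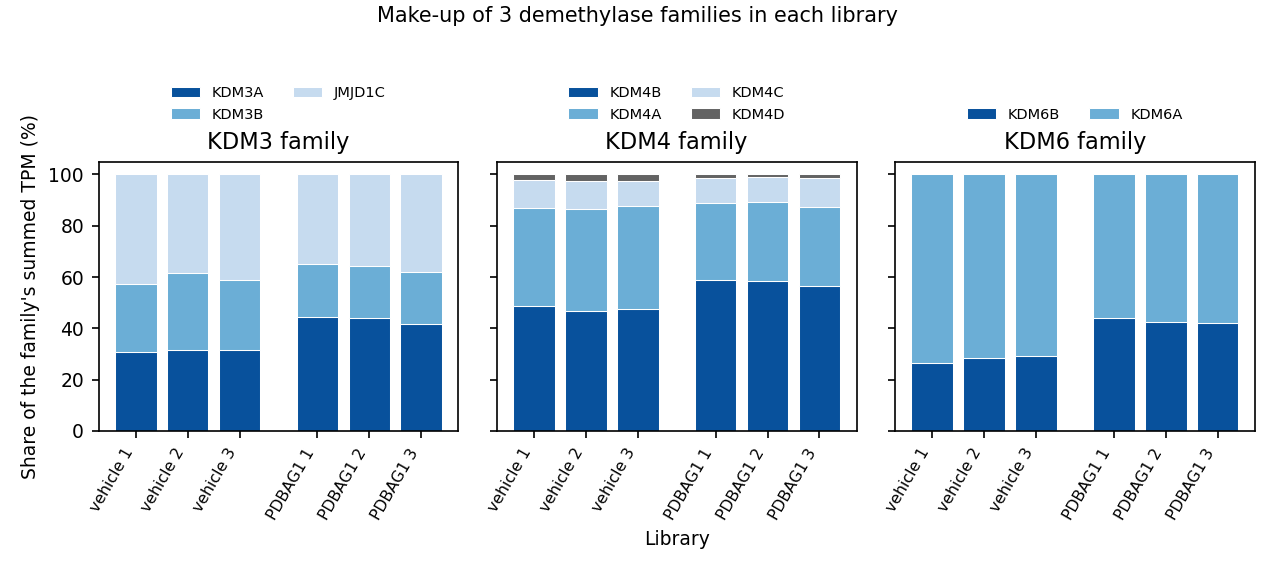
Share of each gene in the summed TPM of its family (percent, stacked bars from 0 to 100) in each of the 6 libraries, for the KDM3, KDM4 and KDM6 families. The dark blue segment at the base, KDM3A, KDM4B or KDM6B, is larger in each of the 3 PDBAG1 libraries than in any vehicle library.

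By level, the order of the 10 genes with vehicle ran from KDM2A at a mean of 33.7 TPM through KDM3A, KDM3B, KDM5B, KDM2B, KDM4B, KDM4A, KDM6A and KDM6B to KDM4C at 2.70 TPM. The libraries of 2 neighbouring pairs overlapped, KDM5B with KDM2B and KDM4A with KDM6A, and all other neighbours were separate. With PDBAG1 KDM3A came first at 56.5 TPM, KDM4B stood above KDM5B and KDM2B, and no neighbours overlapped. Both groups had KDM6B and KDM4C at the low end.

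Grouped by the main mark that each enzyme removes, the 5 H3K9 demethylases (KDM3A, KDM3B, KDM4A, KDM4B and KDM4C) summed to 78.9, 76.5 and 73.3 TPM with vehicle and to 120, 126 and 126 TPM with PDBAG1, a 1.63-fold difference of means. The H3K27 pair went from 12.8 ± 1.24 to 19.0 ± 0.741 TPM (SD, n = 3 each), 1.48-fold. The H3K36 pair KDM2A and KDM2B overlapped between groups at 48.1 ± 2.56 and 51.9 ± 1.48 TPM (SD, n = 3 each), 1.08-fold. Each sum covers only part of the enzymes for its mark. KDM4B and KDM4C were counted under H3K9 alone, although they also act on H3K36. Demethylases outside the genes described here, such as KDM7A and KDM5C, were left out. An exact two-sided permutation test gave p = 0.1 for H3K4 (KDM5B alone), H3K9 and H3K27 and p = 0.2 for H3K36, or 0.133 and 0.2 after adjustment over the 4 sums. These are levels of mRNA, and neither the proteins nor the histone marks were measured here.

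The 5 tested genes whose pattern over the 6 libraries was nearest to that of KDM3A, by Euclidean distance between log2(TPM + 1) values centred on each gene's mean, were KDM7A (distance 0.0622), LOX (0.0648), SLC2A3 (0.0778), IRAK2 (0.0788) and KDM6B (0.0821). Because the libraries within a group were close together, this distance mostly follows the size of the change. From the largest rise, these genes ranked from 58 (IRAK2) to 73 (KDM6B), beside 67 for KDM3A. KDM7A is itself a JmjC demethylase, LOX a lysyl oxidase that cross-links collagen, SLC2A3 a glucose transporter and IRAK2 a kinase of interleukin-1 receptor signalling. LOX averaged 36.2 TPM with vehicle and 75.4 TPM with PDBAG1, and SLC2A3 23.3 and 48.4 TPM.

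The demethylases were then set beside other genes that write, erase or bind the same marks. Of 19 other JmjC proteins, 17 were tested, of which 5 rose and 4 fell, with a median log2 fold change of 0.09 that turned to -0.05 without the length and GC trends. Among all genes tested, limma called 37.6%, with 21.7% higher and 15.9% lower. Within the list KDM7A, which acts on H3K9 and H3K27, rose most. It was at 2.33, 2.10 and 2.04 TPM with vehicle and at 5.39, 5.47 and 5.73 TPM with PDBAG1 (log2 fold change 1.05, limma adjusted p = 1.75e-06). JARID2, a catalytically inactive partner of the repressive complex PRC2, rose with a log2 fold change of 0.52, the H3K4 demethylase KDM5C with 0.47 and JMJD1C with 0.41. JMJD6 was also called higher, with 0.25 (limma adjusted p = 0.0139), and lost the call in 5 of the 14 alternatives. KDM5A, the paralogue of KDM5B, was at 0.21 (limma adjusted p = 0.0532) and did not pass. JMJD4, a hydroxylase that acts on a translation factor, fell by 0.34 on the log2 scale.

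The LSD demethylases are flavin enzymes that use FAD and no iron, and neither of them passed the test, KDM1A with a log2 fold change of -0.07 and KDM1B with 0.19 (limma adjusted p = 0.431 and 0.0514). Of the 7 tested genes in the list of these enzymes and their partners, 1 rose, the partner PHF21A, with a log2 fold change of 0.62. PHF21A kept its call in all 14 alternatives. The list had 2 calls without vehicle replicate 1, with no filter on TPM, with a pseudocount of 0.1 and under median-of-ratios scaling. With the length and GC trends removed it had 3 calls. The list median was 0.07, or -0.01 without the length and GC trends.

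Among the 29 methyltransferase and PRC2 genes, 3 rose, 7 fell and 19 did not pass, and none changed by 1.5-fold. Their median log2 fold change was -0.01. Among all genes tested, limma called 37.6%, with 21.7% higher and 15.9% lower, so the number called in these lists was near that share. In the H3K27 list 5 of 9 genes fell and 1 rose, with a median of -0.23. The list kept 4 of its 6 calls without vehicle replicate 1, without PDBAG1 replicate 1, without PDBAG1 replicate 2, with no filter on TPM and in limma without the trend. Without vehicle replicate 1 it had 5 calls, which included a gene not called in the main fit. EZH2, the catalytic subunit of PRC2, was at 91.4, 84.6 and 84.4 TPM with vehicle and at 65.3, 67.4 and 72.3 TPM with PDBAG1 (log2 fold change -0.34, limma adjusted p = 0.000215). PHF19 fell by 0.40 on the log2 scale, EED by 0.28 and MTF2 by 0.25 (its groups overlapped), all PRC2 subunits or partners, and PHF1, another partner, rose with 0.30. EZH2, PHF19, EED and PHF1 passed in all 14 alternatives, whereas MTF2 (limma adjusted p = 0.0439) passed in 8, with an adjusted p of up to 0.145. SUZ12, the other gene of this list that fell, did so by 0.23 on the log2 scale (limma adjusted p = 0.0251). Its groups overlapped, and it lost the call in 5 of the 14 alternatives. Of the 6 H3K9 methyltransferases SUV39H2 and SUV39H1 fell, by 0.40 and 0.25 on the log2 scale, and EHMT2 was called higher with 0.16. SUV39H2 passed in all 14 alternatives, and it alone was called without PDBAG1 replicate 2. SUV39H1 lost its call in that setting, and EHMT2 (limma adjusted p = 0.0275) lost it in 6 of the 14, with an adjusted p of up to 0.966. The H3K9 median was -0.03, and it was -0.14 without the length and GC trends and -0.12 under quantile normalization. Of the 7 H3K4 methyltransferases only KMT2C was called higher (log2 fold change 0.32, limma adjusted p = 0.0184). It lost the call in 5 of the 14 alternatives, namely with no filter on TPM and without vehicle replicate 2, vehicle replicate 3, PDBAG1 replicate 2 or PDBAG1 replicate 3. The list median of 0.13 ran from 0.05 to 0.20 with a library left out and turned to -0.08 without the length and GC trends, where 3 genes were called. Of the 7 H3K36 methyltransferases limma called 0, and 0 had an unadjusted p under 0.05, while 1 was called without PDBAG1 replicate 3, 1 under median-of-ratios scaling and 2 without the length and GC trends. Their median was -0.01.

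**Figure D5:**
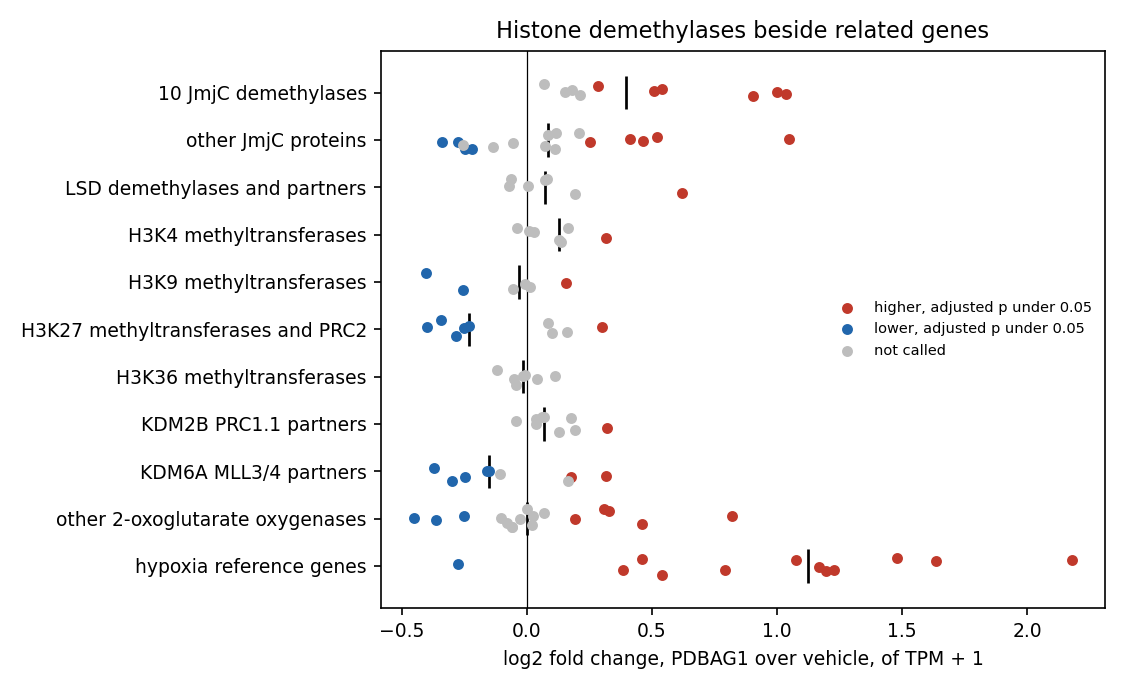
Log2 fold change of TPM + 1, PDBAG1 over vehicle, for the tested genes of each list (points, red where higher and blue where lower at an adjusted p under 0.05), with the median of each list as a black bar. The 10 JmjC demethylases all lie above 0 with a median of 0.40 (KDM2A fell below 0 only with the length and GC trends removed), and the H3K27 methyltransferases and PRC2 genes have a median of -0.23.

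As a reference for the hypoxia response, 12 commonly used hypoxia genes were examined, a list chosen with earlier results of these data known, of which 11 rose and 1, ADM, fell. Their median log2 fold change was 1.12, beside 0.90 for the 3 HIF-target demethylases. NDRG1, a stress-response gene, had 2.18, ANKRD37 1.64, ANGPTL4, a secreted regulator of lipid metabolism, 1.48 and VEGFA, the angiogenic growth factor, 1.23. The paper reported enrichment of hypoxia genes in its RNA-seq. For glycolysis-related targets of HIF-1α, a HIF subunit, it described small rises or falls in this cell line. It proposed that HIF-1α may not activate transcription effectively. Those targets were not compared here with this list gene by gene.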

How the data were processed

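RNA-seq of 6 libraries was used, 3 per group, grouped by the sample titles. The authors deposited TPM per gene and library, rounded to 2 decimals. The methods describe reads mapped with HISAT2 to GRCh38.p13, sequencing on a BGISEQ platform and FPKM; the submitters' processing notes name HISAT2 2.0.4, Bowtie2 2.2.5, RSEM 1.2.12 and GRCh38.p12, and the labels mention Illumina library protocols. The strand setting is not given in the sources used here. Depth is unknown, so precision rests on the replicates.

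Genes that reached 1 TPM in 3 libraries or more were analysed on log2(TPM + 1) in R 4.3.3 with limma 3.58.1 (trend of variance, no block). In a test on simulated data for PDBAG1 versus vehicle (12582 genes), 183 of 200 changed genes were recovered and 10 unchanged genes were called. The planted changes were of 1.5-fold or 2-fold, so the recovery of smaller changes was not tested. Far fewer genes were changed than the 4736 called in the data. Recovery and false calls with so many changed genes were therefore not tested. Exact permutation tests used SciPy 1.17.1. Gene members and lists were chosen with earlier results of these data known. Named were all members, up to 5 called genes per list by size of change, the paralogues in the ratios and the 5 genes nearest to KDM3A. Others named were chosen after their values were seen (KDM1A, KDM1B, ADM, SUZ12, JMJD6, ASH2L, DPY30). Positions are those of GENCODE v44, and promoter windows, found for all 10 members, those of RefSeq (GRCh38.p14). Canonical transcript length and GC content were known for 12433 of the genes tested. Alternatives covered filters, pseudocount, scaling, the variance trend, a replicate block, each library left out and, added after the data were seen, removal of length and GC trends.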

Additional observations from a re-analysis of the deposited data

How the results depend on the processing

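The calls of KDM3A, KDM6B, KDM4B, KDM5B, KDM4C and KDM4A held in all 14 alternative fits, and 134 of 140 comparisons of a member with its reported call kept direction and side of the threshold. The exceptions were KDM2B, KDM3B and KDM6A, given above, and KDM2A, whose log2 fold change turned from 0.07 to -0.073 with the length and GC trends removed (limma adjusted p = 0.134). With each library left out in turn, 6 to 8 members were called, 3 to 4 of them at 1.5-fold, and the difference of medians between HIF targets and others ran from 0.65 to 0.75. It was 0.56 with the length and GC trends removed. Of all genes, 4736 were called, and 3532 to 4649 with each library left out; 420 were called at 1.5-fold, 406 to 480 with a library left out, and 80 at 2-fold. The 60 called lower at 1.5-fold became 100 with a pseudocount of 0.1 and 94 under quantile normalization; the cause was not tested. The 46 calls in related lists ran from 36 to 46 with a library left out.

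In a fit that added a replicate block, 6 members were called, and the difference of medians stayed at 0.69. The labels give no shared origin for the numbers, and deviations of same-numbered libraries correlated at -0.21, 0.01 and -0.08. The exact sign-flip test of 3 pairs cannot fall under 0.25. TPM keeps no depth, so count-based fits were not run.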

Other observations

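Among 20 other 2-oxoglutarate oxygenases, 17 were tested, of which 5 rose and 3 fell, with a median log2 fold change of 0.00 (-0.09 without the length and GC trends). The shares called over all genes tested were 21.7% higher and 15.9% lower. EGLN1, the prolyl hydroxylase that marks HIF subunits for breakdown, was at 29.9, 29.0 and 27.6 TPM with vehicle and at 48.5, 53.4 and 52.9 TPM with PDBAG1 (log2 fold change 0.82, limma adjusted p = 1.75e-07). These values are mRNA, and the paper reported the opposite direction for its protein, PHD2, which was lower in immunoblots after PDBAG1. EGLN3, a second HIF prolyl hydroxylase, rose with a log2 fold change of 0.46 from 2.60 ± 0.217 TPM (SD, n = 3), and TET2, which oxidises methylcytosine in DNA, with 0.33, a call that was lost without vehicle replicate 3 (limma adjusted p = 0.0686). ALKBH4 and ALKBH2, the latter a DNA repair dioxygenase, fell by 0.45 and 0.36 on the log2 scale.

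Partners of the demethylases were also examined. As background, 37.6% of all genes tested were called, 21.7% higher and 15.9% lower. Of 9 KDM6A partners in the KMT2C and KMT2D complexes, 5 were called lower and 2 higher, with a median log2 fold change of -0.15. Of these 7 calls, 3 were left without vehicle replicate 2, without vehicle replicate 3 or without PDBAG1 replicate 2, and 5 with the replicate block. PAGR1 fell by 0.37 on the log2 scale, WDR5 by 0.30 and PAXIP1 by 0.25, and these 3 passed in all 14 alternatives. The other lower calls, ASH2L and DPY30, were lost in 5 and 7 of the 14, with limma adjusted p of up to 0.108 and 0.685. The methyltransferase KMT2C had a log2 fold change of 0.32 and the coactivator NCOA6 of 0.18 (limma adjusted p = 0.0184 and 0.0373), and they lost the call in 5 and 8 of the 14 alternatives. Of 9 partners of KDM2B in the PRC1.1 complex, 1 rose, PCGF1, the subunit that defines the complex, from 35.6 ± 0.592 to 44.8 ± 0.879 TPM (SD, n = 3 each). Its log2 fold change was 0.32 (limma adjusted p = 0.000245). The median of that list was 0.07.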
